A study of Rattus norvegicus with 10 samples.

Results

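The genes described here are the nuclear-encoded subunits of the mitochondrial respiratory chain and of ATP synthase, read out by RNA sequencing of whole cultures of rat TDSCs, the tendon-derived stem cells, which are precursors in tendon able to take a bone fate. The members were chosen by name: a symbol of the Nduf, Sdh, Uqcr, Cyc1, Cox4 to Cox8 or Atp5 series, on a chromosome other than the mitochondrial one. Of 23051 genes in the table, 89 met this rule (87 different symbols), and 76 of them had at least 10 counts in at least 5 of the 10 libraries and entered the test with 12942 genes in all. The tested members comprised 34 genes of complex I, 4 of complex II, 8 of complex III, 13 of complex IV and 17 of complex V. The farnesol group was 5 libraries of TDSCs kept in osteogenic induction with 50 µM farnesol, and the control group was 5 libraries of TDSCs in osteogenic induction without farnesol, all taken on day 3. Farnesol is an isoprenoid alcohol derived from the mevalonate pathway. Whether the controls received the solvent cannot be read from the labels, which give both readings. The labels number the biological replicates but do not give their animal or culture of origin. The p-values therefore reflect how far these particular samples scatter, and part of that scatter may be technical.

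The respiratory chain sits in the inner mitochondrial membrane. Complex I takes electrons from NADH and complex II takes them from succinate, and both hand them to ubiquinone. Complex III passes them on to cytochrome c, and complex IV passes them to oxygen. Complexes I, III and IV pump protons as they do so, and complex V (ATP synthase) uses the returning protons to make ATP. Most subunits are encoded in the nucleus and imported, while a small set is encoded by mitochondrial DNA and must be assembled with them. Cells that move from a stem-like state towards bone are known to change how far they rely on this chain.

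With farnesol, most members stood moderately higher. Of the 76 tested members, 59 rose and 2 fell at an edgeR adjusted p under 0.05, and 15 did not pass; over all genes tested, 29.3% were higher, 30.0% were lower and 59.2% were called in either direction. The members' median log2 fold change was 0.35 (1.28-fold), against 0.01 over all genes tested. The rises were mostly small: 55 of the 59 were under 1.5-fold, and the range was 1.09 to 2.46-fold. The top of that range was Cox4i2, an alternative isoform of a complex IV subunit, and the next highest rise was 1.54-fold. Without any overlap between the groups, 36 members were higher in all farnesol libraries than in any control library and 1 was lower, where 19.7% and 20.9% of all genes tested did the same.

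**Figure D1:**
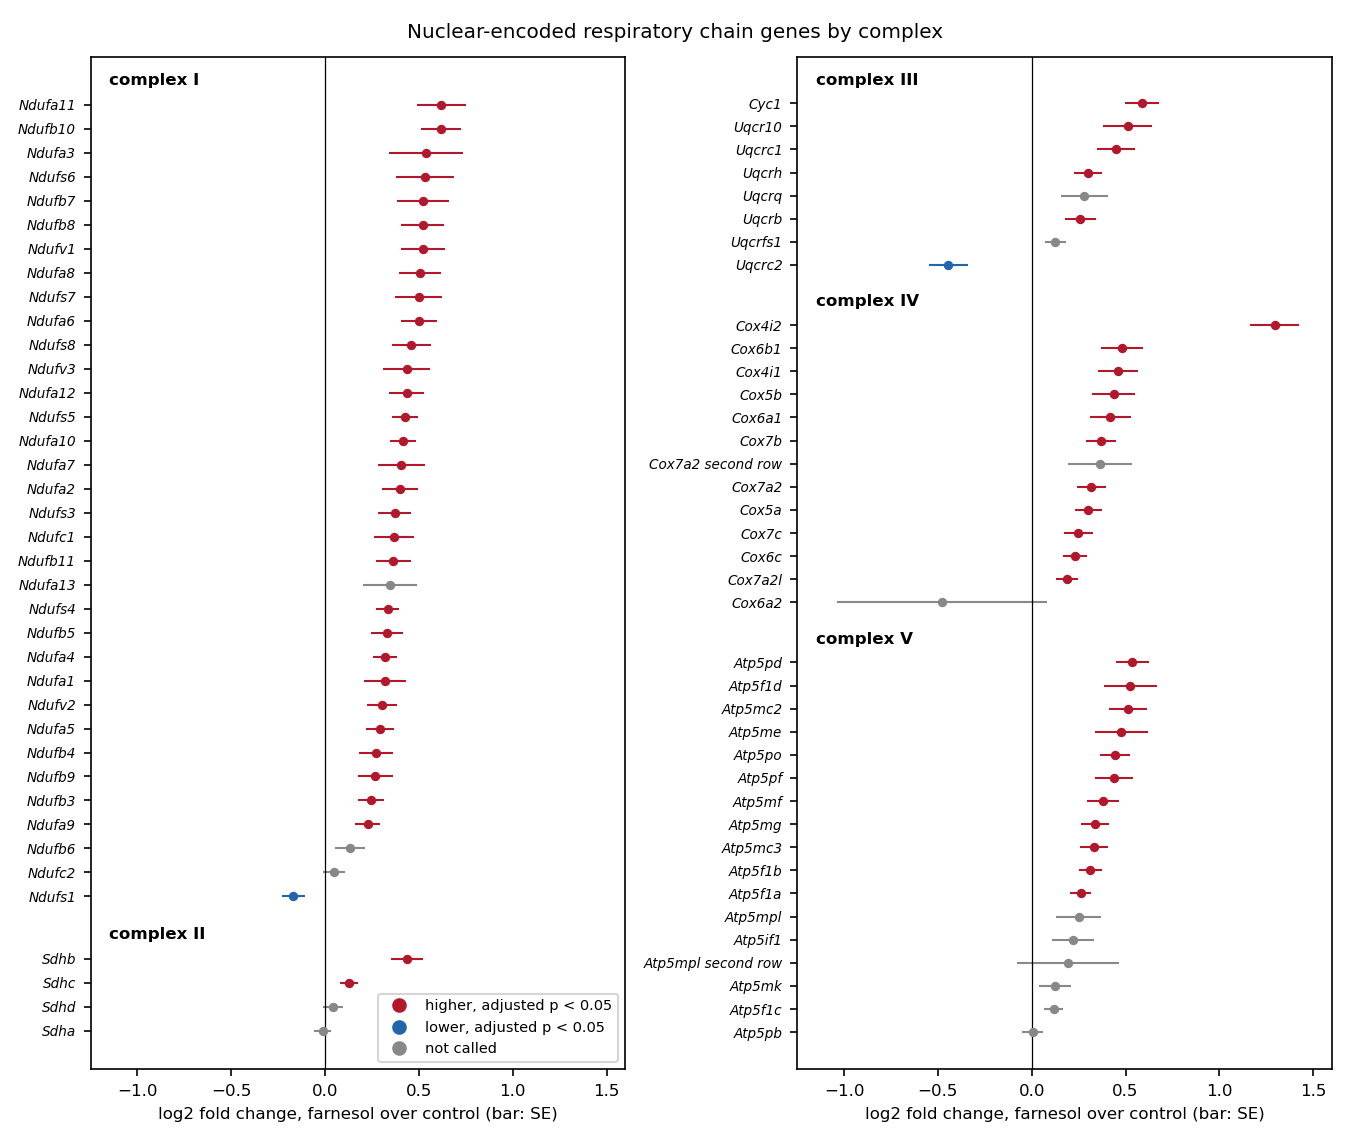
Each point is the log2 fold change of a tested member, farnesol over control, with its SE as a bar, grouped by complex and coloured by its edgeR call (5 libraries per group). Of 76 points, 59 are called higher; Uqcrc2 and Ndufs1 are the 2 called lower, and Cox4i2 stands apart at 1.30.

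The share of each library taken by these genes differed between the groups. All tested members together took 0.795% ± 0.0659 of the counts with farnesol and 0.629% ± 0.0514 in control (SD, n = 5 each), and the lowest farnesol library (0.742%) was above the highest control library (0.705%). The summed CPM (TMM-scaled counts per 1e6) of complex I was 2092 ± 257 with farnesol and 1634 ± 141 in control, a ratio of 1.28. The ratio of summed CPM was 1.09 for complex II, 1.20 for complex III, 1.29 for complex IV and 1.24 for complex V. The median log2 fold change of the members was 0.39 in complex I, 0.085 in complex II, 0.29 in complex III, 0.36 in complex IV and 0.33 in complex V. Whether the complexes differ from each other in their change was not tested. In bulk RNA, a different share of cells of some kind and a different amount of RNA per cell cannot be told apart.

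The libraries within a group were not alike, and the members moved with a feature of the whole library. For each library, the slope of its log2 ratio to the mean library on log2 gene length (the length slope) was computed over all genes tested. It was negative, meaning relatively more reads on short genes, in all farnesol libraries (-0.185 to -0.0355), and it was 0.0651 to 0.169 in control libraries apart from control 3 at -0.00186. The members are short, with a median length of 1202 bp against 3079 bp over all genes tested. The median deviation of the members from their mean over the 10 libraries was 0.18, 0.10, 0.055, 0.11 and 0.41 in farnesol libraries 1 to 5, and -0.37, -0.19, 0.015, -0.14 and -0.20 in control libraries 1 to 5, on the log2 (CPM + 0.05) scale. Farnesol 5, with the most negative slope, held the highest value of its group for 68 of the 76 members. In the control group, control 3 held the highest value for 66 members, and control 1, with the most positive slope, held the lowest for 65.

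**Figure D2:**
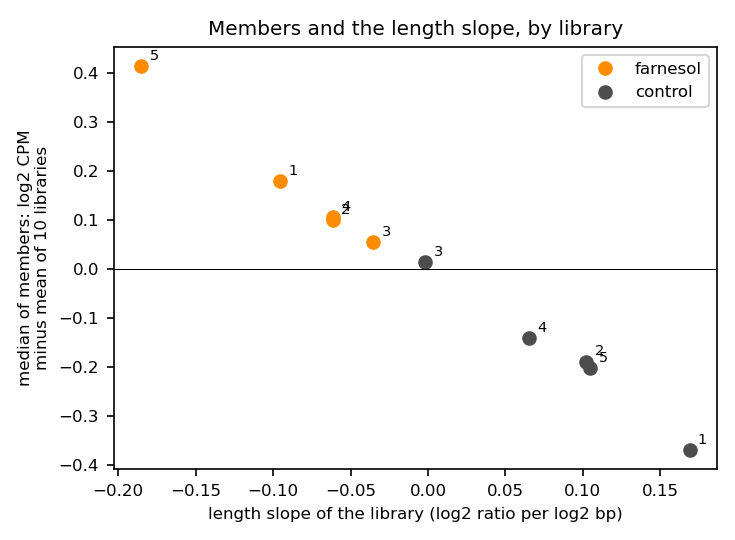
Each point is a library, numbered by replicate: the x axis is its length slope over all genes tested and the y axis the median of the 76 members' log2 (CPM + 0.05) minus their mean over the 10 libraries. The points descend from left to right, apart from farnesol 2 (0.10) and farnesol 4 (0.11), whose slopes are nearly the same; farnesol 5 (0.41) and control 1 (-0.37) are the extremes and farnesol 3 (0.055) and control 3 (0.015) are neighbours.

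The calls moved when such library features were put into the fit. With the length slope as a covariate in edgeR, 1 member was higher and 3 were lower, with a median of -0.055, against 3.00% higher, 4.54% lower and 7.53% in either direction over all genes tested. With the first principal component of the spread within groups (the library axis, 36.2% of that variance) as a covariate, 10 members were higher and 1 was lower, with a median of 0.04, against 9.11% higher, 12.0% lower and 21.1% in either direction over all genes tested. With a smooth trend on gene length removed from each library, 33 members were higher and 7 lower, with a median of 0.11, against 27.5% higher, 28.3% lower and 55.8% in either direction over all genes tested. The slope and the treatment run together across these 10 libraries, so their parts in the members' rise cannot be told apart. The libraries with the nearest slopes, farnesol 3 and control 3, gave a median log2 ratio of 0.03 over the members. Of the 76 members, 51 were higher in farnesol 3. Over all genes tested the median was 0.0033, and 6552 of the 12934 compared were higher in farnesol 3. That is a comparison of 1 library with 1 library and has no replicate check.

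**Figure D3:**
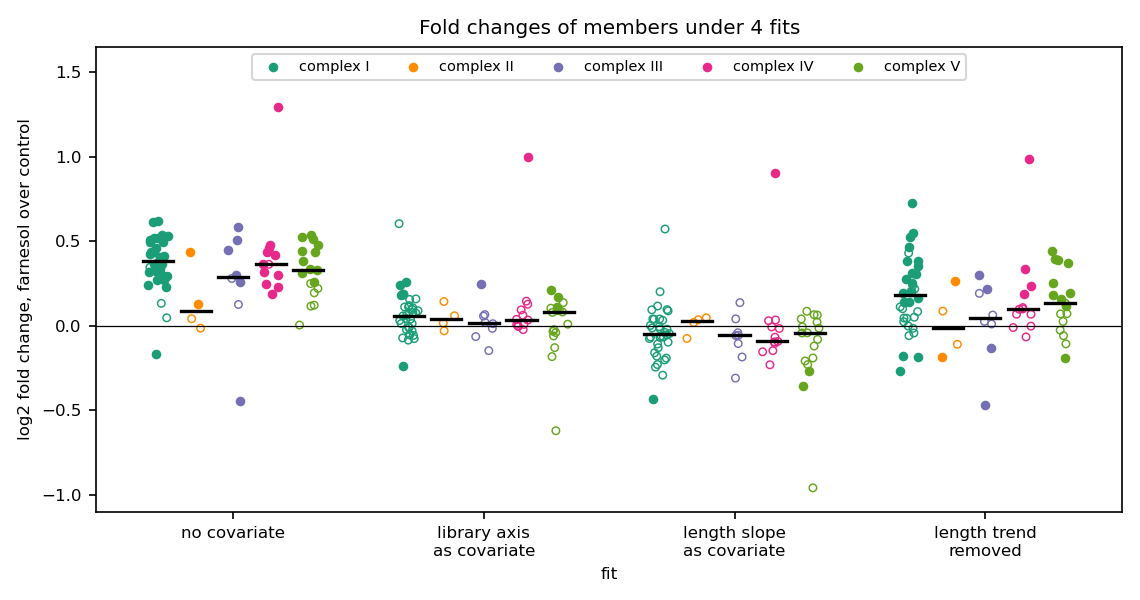
Each circle is a member's log2 fold change, farnesol over control, under 4 fits and coloured by complex; filled circles have an edgeR adjusted p under 0.05 and black lines are the medians per complex (Cox6a2, which is near the detection limit, is left off the plot but counted in the medians). The cloud of complex I has its median at 0.39 without a covariate and at -0.050 with the length slope, while Cox4i2 stays at the top in all 4 fits.

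Length varied widely among the members. Across the 76 members, the log2 fold change and log2 length had a Pearson correlation of -0.083 (Spearman -0.040), against -0.31 (Spearman -0.38) across all genes tested; genes share libraries and are not independent replicates. Of 22 members with lengths over 500 and up to 1000 bp, 19 were higher (86.4%), where 52.4% of all genes of that length were. Of 13 members over 2000 and up to 4000 bp, 10 were higher (76.9%), where 30.4% of all genes of that length were. The 4 members over 4000 bp held 3 rises, a bin in which 15.5% of all genes rose. Of 11 members up to 500 bp, 4 were higher (36.4%), where 29.4% of all genes of that length were.

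**Figure D4:**
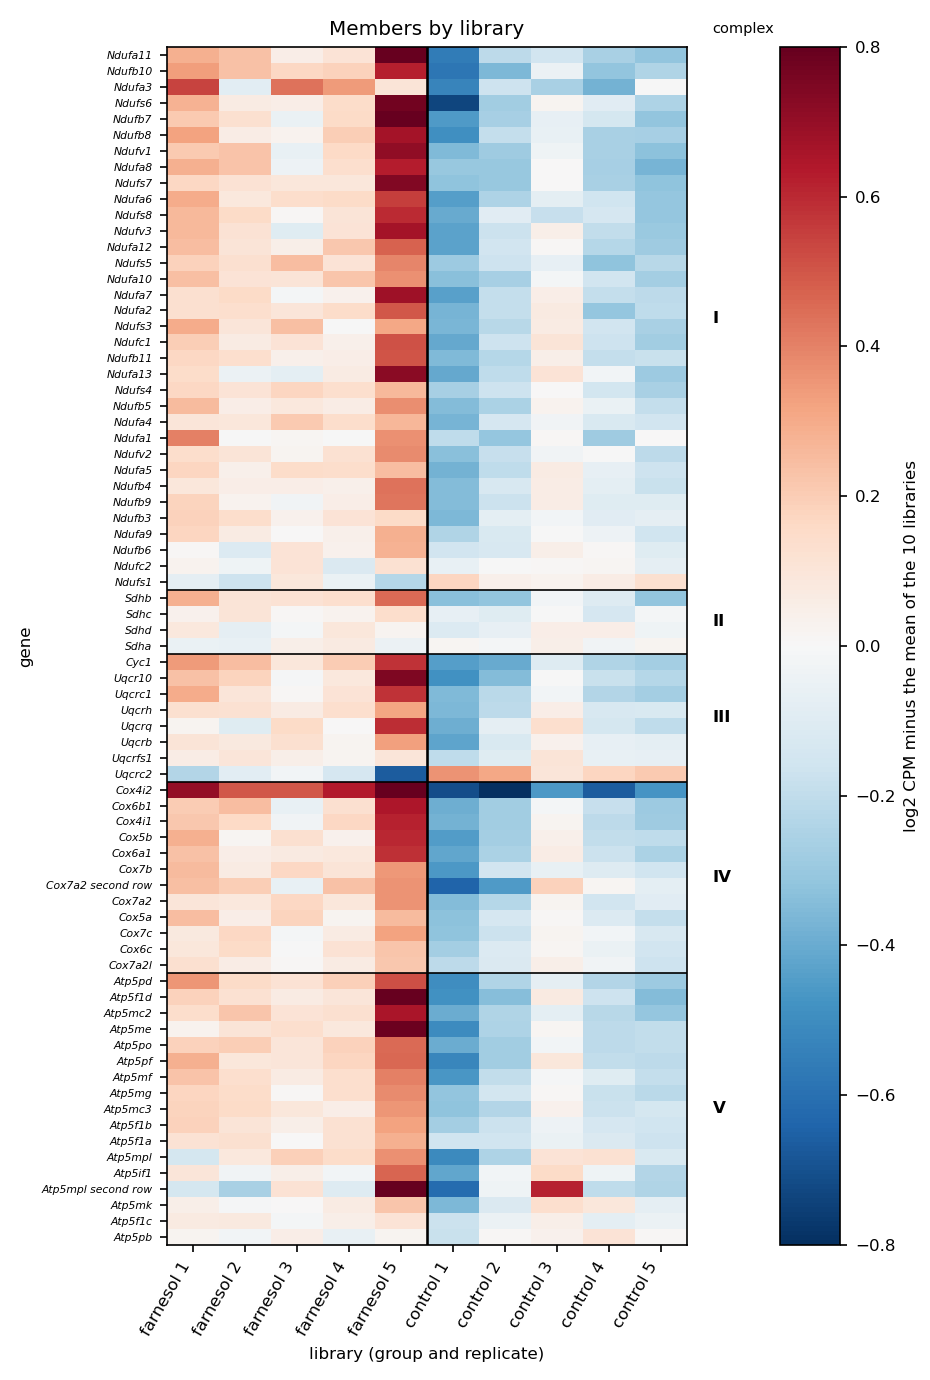
Tested members run down the page and libraries across it; colour gives log2 CPM minus the gene's mean over the 10 libraries (Cox6a2, near the detection limit, is left out). Farnesol 5 is the reddest and control 1 the bluest column over most members, farnesol 3 and control 3 lie close to the mean, and Ndufs1 and Uqcrc2 run the other way.

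Promoters of the members were examined because respiratory chain genes are known to share binding motifs for NRF1, for ETS factors such as GABP, and for YY1. RefSeq promoter sequences (GRCr8; 250 bases before to 50 after the start) matched 74 of the 87 member symbols, 66 of them tested. The NRF1 core GCATGCGC occurred on either strand in 12.2% of member promoters and in 2.47% of all 33469 promoters of the same length. The ETS core CCGGAAG occurred in 27.0% of member promoters and in 8.75% of all promoters, and the YY1 motif AANATGGC in 41.9% and 6.96%. At least 1 of the 3 motifs stood in 45 of 74 member promoters (60.8%), against 16.5% of all promoters. Member promoters had a median GC content of 55.7%, against 51.7% over all. Among members with an entry, 33 of the 51 that rose held a motif, as did both that fell and 5 of the 13 that did not pass. A match is a description of letters and not evidence of binding.

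The 250 bases before the start are shown for the member with the smallest p in each complex that had an entry, and for both members that fell; motif matches lying wholly in these bases are in capitals, and the matches may be on either strand. Ndufs5 is at chr5:141264403-141264652, minus strand, Sdhb at chr5:158547684-158547933, plus strand, Uqcrc1 at chr8:118467973-118468222, plus strand, Cox7b at chrX:75148786-75149035, plus strand and Atp5po at chr11:44657484-44657733, minus strand. Ndufs1 is at chr9:72073606-72073855, minus strand and Uqcrc2 at chr1:184598990-184599239, plus strand. All are GRCr8 positions and the sequences run 5′ to 3′ along the gene's strand. In Atp5po a pair of NRF1 cores overlap on opposite strands. Both genes that fell carry the ETS core read on the opposite strand, CTTCCGG, and Uqcrc2 carries it at 2 places. The window of Ndufs5 holds none of the 3 motifs, which says only that these letters are not there.
Ndufs5: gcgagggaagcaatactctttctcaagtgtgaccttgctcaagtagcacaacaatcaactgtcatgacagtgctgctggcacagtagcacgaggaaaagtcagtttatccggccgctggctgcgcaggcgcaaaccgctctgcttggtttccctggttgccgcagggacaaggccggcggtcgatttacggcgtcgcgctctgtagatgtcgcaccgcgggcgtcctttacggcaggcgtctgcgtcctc
Sdhb: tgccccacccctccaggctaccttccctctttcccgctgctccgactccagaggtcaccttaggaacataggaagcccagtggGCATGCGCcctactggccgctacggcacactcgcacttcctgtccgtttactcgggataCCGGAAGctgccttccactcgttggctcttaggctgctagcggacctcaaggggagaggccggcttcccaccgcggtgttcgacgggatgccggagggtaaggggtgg
Uqcrc1: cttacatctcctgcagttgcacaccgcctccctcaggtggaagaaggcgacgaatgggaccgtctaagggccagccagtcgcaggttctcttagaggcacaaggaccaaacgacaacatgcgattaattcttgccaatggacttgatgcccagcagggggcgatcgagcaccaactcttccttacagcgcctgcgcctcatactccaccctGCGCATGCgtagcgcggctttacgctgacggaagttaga
Cox7b: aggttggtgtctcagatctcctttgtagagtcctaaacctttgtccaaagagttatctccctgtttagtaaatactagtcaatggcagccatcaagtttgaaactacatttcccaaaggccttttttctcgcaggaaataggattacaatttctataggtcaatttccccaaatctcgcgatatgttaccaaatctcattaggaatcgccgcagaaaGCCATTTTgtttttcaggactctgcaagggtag
Atp5po: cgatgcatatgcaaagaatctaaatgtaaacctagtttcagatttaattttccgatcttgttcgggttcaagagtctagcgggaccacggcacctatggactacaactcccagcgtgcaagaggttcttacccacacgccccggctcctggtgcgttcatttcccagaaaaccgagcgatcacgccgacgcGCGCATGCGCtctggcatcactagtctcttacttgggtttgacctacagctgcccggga
Ndufs1: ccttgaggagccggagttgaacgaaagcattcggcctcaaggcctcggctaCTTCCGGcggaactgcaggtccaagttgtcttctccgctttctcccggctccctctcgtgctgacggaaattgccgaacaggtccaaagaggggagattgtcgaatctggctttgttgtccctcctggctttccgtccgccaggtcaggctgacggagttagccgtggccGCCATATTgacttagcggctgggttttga
Uqcrc2: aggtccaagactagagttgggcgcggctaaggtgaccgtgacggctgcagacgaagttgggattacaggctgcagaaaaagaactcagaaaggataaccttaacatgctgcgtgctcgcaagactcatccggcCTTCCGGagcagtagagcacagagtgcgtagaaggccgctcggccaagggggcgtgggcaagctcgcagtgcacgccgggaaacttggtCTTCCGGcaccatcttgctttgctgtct

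In complex I, 30 of 34 tested members rose, 1 fell and 3 did not pass. The core subunits carry the flavin and iron-sulphur clusters along which electrons travel from NADH to ubiquinone, and 5 of the 6 tested nuclear core subunits rose. Ndufv1, which binds the flavin where NADH gives up its electrons, had 95.2, 96.6, 79.1, 91.9 and 135 CPM in the farnesol libraries, against 64.5, 67.6, 80.5, 68.8 and 65.6 CPM in the control libraries. The farnesol values were higher except that farnesol 3 lay below control 3, so the groups overlapped (log2 fold change 0.52 ± 0.12 (SE), edgeR adjusted p = 0.0024). Ndufs8, which carries iron-sulphur clusters near the quinone site, had 36.8, 34.2, 30.9, 33.0 and 46.4 CPM in the farnesol libraries, against 23.2, 28.8, 27.0, 28.0 and 24.7 CPM in the control libraries without overlap (log2 fold change 0.46 ± 0.10 (SE), edgeR adjusted p = 0.00239). Ndufs3, Ndufs7 and Ndufv2 had log2 fold changes of 0.37, 0.50 and 0.30.

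Ndufs1, the largest core subunit, was the exception. It had 85.8, 80.2, 95.7, 86.6 and 76.8 CPM in the farnesol libraries, against 101, 92.6, 91.6, 93.7 and 98.6 CPM in the control libraries. Farnesol 3 was above 3 of the 5 control libraries and the other farnesol libraries were below all of them, and the call for a fall was narrow (log2 fold change -0.17 ± 0.06 (SE), edgeR adjusted p = 0.0335). It was lost when any of 6 single libraries was left out, farnesol 1, 2, 4 or 5 or control 1 or 5, with the adjusted p reaching 0.0835.

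The accessory subunits surround the core and are needed for its assembly and stability, and 24 of 27 rose. Ndufs5, a small subunit on the intermembrane side, had the smallest p of complex I. It had 54.2, 52.1, 56.5, 51.2 and 62.3 CPM in the farnesol libraries, against 38.9, 42.4, 45.5, 38.1 and 40.8 CPM in the control libraries. All farnesol libraries lay above all control libraries (log2 fold change 0.42 ± 0.07 (SE), edgeR adjusted p = 0.000377), and the call was kept with the library axis as a covariate (adjusted p = 0.00617) but not with the length slope (0.233). Ndufb10, a subunit of the membrane arm, had 60.1, 56.1, 53.5, 54.3 and 73.2 CPM in the farnesol libraries, against 31.9, 37.1, 46.1, 38.3 and 40.3 CPM in the control libraries. Its groups did not overlap either (log2 fold change 0.62 ± 0.10 (SE), edgeR adjusted p = 0.000438).

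Ndufa10 had 96.3, 87.9, 87.8, 95.0 and 105 CPM in the farnesol libraries, against 64.7, 68.0, 80.5, 73.4 and 67.5 CPM in the control libraries, again without overlap (log2 fold change 0.41 ± 0.07 (SE), edgeR adjusted p = 0.000464). At 3422 bp its counted length is longer than the median of all genes tested. Ndufs4, whose loss in people and mice causes a severe brain disease of mitochondrial origin, had 52.9, 50.8, 53.2, 51.8 and 56.5 CPM in the farnesol libraries, against 39.2, 42.0, 47.2, 42.6 and 39.4 CPM in the control libraries. The spread of Ndufs4 within the farnesol group was narrow and all farnesol values exceeded the control values (log2 fold change 0.33 ± 0.06 (SE), edgeR adjusted p = 0.000794). Both genes kept their rise with the library axis as a covariate, with adjusted p of 0.0108 for Ndufa10 and 0.0333 for Ndufs4, and lost it with the length slope. Ndufa11 had the largest rise in complex I at 1.54-fold, with a farnesol 5 value of 91.9 CPM where the other farnesol libraries held 54.0 to 63.6 CPM.

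The other accessory subunits with a rise had log2 fold changes between those of Ndufa9 (0.23) and Ndufa3 (0.54), apart from Ndufa11 and Ndufb10 above. Ndufa4, counted here by its name but known to belong to complex IV, had 129.6, 129, 141, 134 and 146 CPM in the farnesol libraries, against 93.8, 110.4, 119, 112 and 109 CPM in the control libraries. No control library reached the lowest farnesol library (log2 fold change 0.32 ± 0.06 (SE), edgeR adjusted p = 0.00119). Ndufa13, also known as the cell death regulator GRIM-19, did not pass (log2 fold change 0.35 ± 0.15 (SE), edgeR adjusted p = 0.055): farnesol 5 stood at 97.5 CPM, while the other farnesol libraries and the controls overlapped. With the length slope as a covariate its value was -0.43 with an adjusted p of 0.00286. Ndufb6 and Ndufc2 did not pass, with log2 fold changes of 0.13 and 0.05.

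Complex II is succinate dehydrogenase, the enzyme that the chain shares with the citric acid cycle, and the median log2 fold change of its members was 0.085 without a covariate. With the library axis it was 0.038 and with the length slope 0.028, a value above the medians of the other complexes in that fit. With the length trend removed it was -0.011, below the medians of the other complexes, as it also was without a covariate. Of 4 tested members, 2 rose and 2 did not pass. Sdha, the flavoprotein that oxidises succinate, had 106, 106, 114, 116 and 107 CPM in the farnesol libraries, against 111, 109, 114, 108 and 112 CPM in the control libraries. The groups overlapped throughout and the difference was not called (log2 fold change -0.01 ± 0.05 (SE), edgeR adjusted p = 0.812). Sdhb, the iron-sulphur subunit bound to Sdha, had 70.4, 62.2, 62.7, 63.7 and 79.4 CPM in the farnesol libraries, against 46.0, 46.6, 57.0, 54.0 and 46.5 CPM in the control libraries. All farnesol libraries were above all control libraries (log2 fold change 0.44 ± 0.09 (SE), edgeR adjusted p = 0.00102).

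The membrane anchors Sdhc and Sdhd, which bind ubiquinone, had small fold changes. Sdhc had 99.7, 105, 98.1, 99.3 and 108 CPM in the farnesol libraries, against 93.2, 91.0, 97.0, 88.7 and 96.3 CPM in the control libraries. The lowest farnesol library was just above the highest control library (log2 fold change 0.13 ± 0.05 (SE), edgeR adjusted p = 0.038), and the call was lost when any of farnesol 1, 2 or 5 or control 1, 2 or 4 was left out, with an adjusted p of up to 0.0967. Sdhd had 56.2 to 62.7 CPM with farnesol and 54.6 to 61.2 CPM in control (log2 fold change 0.04 ± 0.06 (SE), edgeR adjusted p = 0.532). The subunits of complex II had mean levels of 28.4 ± 1.51 FPKM with farnesol and 28.3 ± 0.594 FPKM in control for Sdha, 34.9 ± 3.19 FPKM with farnesol and 25.5 ± 2.61 FPKM in control for Sdhb, 67.2 ± 1.98 FPKM with farnesol and 60.7 ± 2.37 FPKM in control for Sdhc and 38.5 ± 1.84 FPKM with farnesol and 36.9 ± 1.84 FPKM in control for Sdhd (SD, n = 5 each), on the FPKM scale that accounts for length.

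In complex III, 5 of 8 tested members rose, 1 fell and 2 did not pass. Cyc1, cytochrome c1, carries the heme that hands electrons to cytochrome c, and it had the smallest p of the complex. It had 92.9, 87.0, 78.2, 84.6 and 109 CPM in the farnesol libraries, against 54.0, 55.5, 68.5, 62.3 and 60.7 CPM in the control libraries. The lowest farnesol library exceeded the highest control library (log2 fold change 0.59 ± 0.09 (SE), edgeR adjusted p = 0.000266). The rise was kept with the library axis as a covariate (log2 fold change 0.25, adjusted p = 0.000888) and with the length trend removed (0.30, 0.000481), and was lost with the length slope (0.14, 0.362). Uqcrfs1, the Rieske iron-sulphur protein that feeds cytochrome c1, did not pass (log2 fold change 0.13 ± 0.06 (SE), edgeR adjusted p = 0.0728) and overlapped between the groups through control 3 (94.0 CPM).

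The paired core proteins of complex III moved in opposite directions. Uqcrc1 had 109, 94.9, 89.2, 95.8 and 133 CPM in the farnesol libraries, against 69.6, 76.6, 87.3, 75.6 and 73.6 CPM in the control libraries. Its groups did not overlap, though farnesol 3 and control 3 were close (log2 fold change 0.45 ± 0.10 (SE), edgeR adjusted p = 0.00223). Uqcrc2 had 58.9, 65.4, 68.4, 63.3 and 43.7 CPM in the farnesol libraries, against 89.3, 86.1, 74.2, 78.2 and 80.2 CPM in the control libraries. All farnesol libraries lay below all control libraries, with farnesol 5 the lowest (log2 fold change -0.44 ± 0.10 (SE), edgeR adjusted p = 0.00277), the only member with a fall and no overlap. Uqcrc2 at 2859 bp is longer than Uqcrc1 at 1595 bp, and its fall was lost with the library axis (log2 fold change -0.06, adjusted p = 0.508) and the length slope (0.04, 0.884); it stayed at -0.47 (0.002) with the length trend removed.

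Of the small subunits of complex III, 3 of 4 rose. Uqcrh, the hinge protein between cytochrome c1 and cytochrome c, had 160.1, 159.8, 153, 161 and 182 CPM in the farnesol libraries, against 115, 127, 152, 134 and 135 CPM in the control libraries. The values of the groups were adjacent, with farnesol 3 and control 3 next to each other (log2 fold change 0.30 ± 0.07 (SE), edgeR adjusted p = 0.00373). Uqcr10 and Uqcrb had log2 fold changes of 0.51 and 0.26 with overlap between the groups, and Uqcrq did not pass (log2 fold change 0.28 ± 0.13 (SE), edgeR adjusted p = 0.0712).

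In complex IV, cytochrome c oxidase, 11 of 13 tested members rose and none was called lower. Subunit 4 regulates the enzyme by its energy state and has a widespread isoform, Cox4i1, and an alternative isoform, Cox4i2, best known in lung and from responses to low oxygen. Cox4i2 had 6.17, 5.34, 5.35, 5.89 and 7.16 CPM in the farnesol libraries, against 2.31, 1.97, 2.76, 2.39 and 2.74 CPM in the control libraries. All farnesol libraries lay well above all control libraries (log2 fold change 1.30 ± 0.13 (SE), edgeR adjusted p = 1.09e-05), a 2.46-fold difference. It was the only member called higher in every fit run, with a log2 fold change of 1.00 with the library axis, 0.91 with the length slope (adjusted p = 0.0113) and 0.99 with the length trend removed. Leaving out single libraries gave 1.22 to 1.34.

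Cox4i1, the main isoform, had 379.7, 366, 322, 368 and 502 CPM in the farnesol libraries, against 252, 269.8, 333, 283 and 269 CPM in the control libraries. Farnesol 3 lay below control 3, and the other farnesol libraries lay above all controls (log2 fold change 0.46 ± 0.11 (SE), edgeR adjusted p = 0.00277). Per length, Cox4i2 stayed far below Cox4i1, with 6.34 ± 0.687 FPKM with farnesol and 2.55 ± 0.343 FPKM in control against 173 ± 27.1 FPKM with farnesol and 125 ± 13.8 FPKM in control (SD, n = 5 each). The share of Cox4i2 in the sum of both isoforms was 3.55% ± 0.232 with farnesol and 2.01% ± 0.242 in control (SD, n = 5 each), with farnesol libraries at 3.26 to 3.78% and control libraries at 1.70 to 2.35%.

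**Figure D5:**
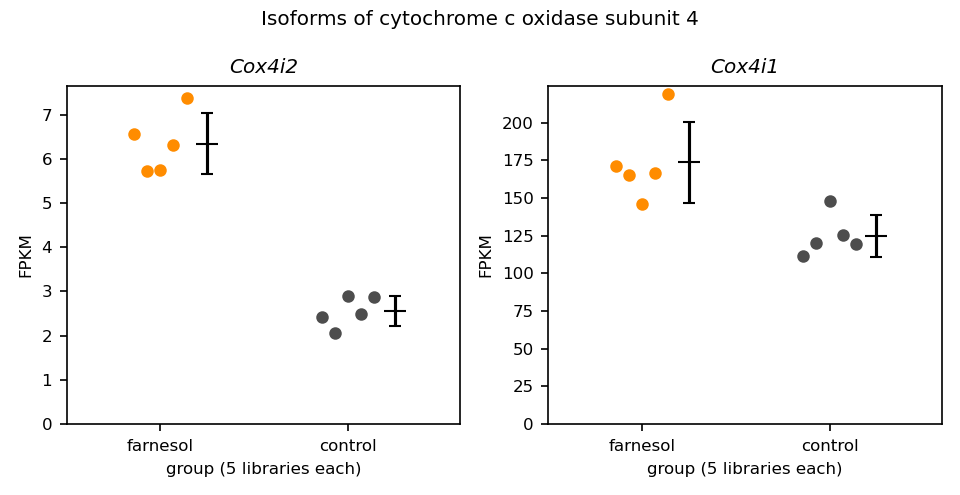
FPKM of Cox4i2 (left) and Cox4i1 (right) in each library, with the mean and SD beside each group (5 libraries each). Cox4i2 is at 5.71 to 7.38 FPKM with farnesol and 2.07 to 2.90 FPKM in control, whereas for Cox4i1 the lowest farnesol library (145.9 FPKM) is below the highest control library (147.9 FPKM).

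Other subunits of complex IV rose by smaller amounts. Cox7b, needed for assembly of the enzyme, had 50.1, 43.9, 47.0, 45.0 and 53.4 CPM in the farnesol libraries, against 30.5, 37.8, 40.4, 39.1 and 37.6 CPM in the control libraries. All farnesol libraries were above all controls, and control 1 was the lowest (log2 fold change 0.37 ± 0.08 (SE), edgeR adjusted p = 0.00206). Cox5a, which pairs with subunit 4 on the matrix side, had 102, 89.4, 97.3, 87.4 and 103 CPM in the farnesol libraries, against 68.5, 78.3, 86.4, 79.9 and 75.2 CPM in the control libraries and did not overlap (log2 fold change 0.30 ± 0.07 (SE), edgeR adjusted p = 0.0027).

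For subunit 6a, the widespread isoform was far above the muscle isoform per length. Cox6a1 averaged 258 ± 38.6 FPKM with farnesol and 191 ± 23.6 FPKM in control (SD, n = 5 each) and rose (log2 fold change 0.42 ± 0.11 (SE), edgeR adjusted p = 0.00511), while its muscle isoform Cox6a2 averaged 0.510 FPKM with farnesol and 0.705 FPKM in control, overlapping throughout and not called (log2 fold change -0.48 ± 0.56 (SE), edgeR adjusted p = 0.478). Cox7a2 averaged 184 ± 12.7 FPKM with farnesol and 146 ± 14.3 FPKM in control and rose (log2 fold change 0.32 ± 0.08 (SE), edgeR adjusted p = 0.00369). Cox7a2l, a related protein that helps join complexes III and IV into supercomplexes, also rose (log2 fold change 0.19 ± 0.06 (SE), edgeR adjusted p = 0.016). Cox6b1 averaged 356 ± 61.4 FPKM with farnesol and 253 ± 26.0 FPKM in control and rose (log2 fold change 0.48 ± 0.11 (SE), edgeR adjusted p = 0.00289). The testis isoforms Cox8c and Cox7b2 were at 0 in every library, and a second entry with the symbol Cox7a2, on chromosome 14 and with 1 uninterrupted stretch, had 2.30 to 3.07 CPM with farnesol and 1.54 to 2.71 CPM in control and did not pass. Cox5b, Cox6c and Cox7c rose with log2 fold changes of 0.44, 0.23 and 0.25, all with overlapping groups.

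In complex V, 11 of 17 tested members rose, 6 did not pass and none was called lower. The F1 head makes ATP on the alpha and beta subunits. Atp5f1b, the catalytic beta subunit, was the most abundant member per length (538 ± 31.3 FPKM with farnesol and 428 ± 25.1 FPKM in control, SD, n = 5 each). It had 975, 923, 887, 932 and 1073 CPM in the farnesol libraries, against 709.5, 763, 834, 783 and 769 CPM in the control libraries. All farnesol libraries exceeded all control libraries (log2 fold change 0.31 ± 0.06 (SE), edgeR adjusted p = 0.000985), and the rise was kept with the library axis as a covariate (adjusted p = 0.0241). Atp5f1a, the alpha subunit, had 370.2, 373, 343, 373 and 416 CPM in the farnesol libraries, against 306, 306, 331, 316 and 306 CPM in the control libraries without overlap (log2 fold change 0.26 ± 0.06 (SE), edgeR adjusted p = 0.00153).

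The central stalk turns inside the head, and its subunits differed in their calls. Atp5f1d, the delta subunit, had a log2 fold change of 0.53 ± 0.14 (SE), with farnesol 5 at 151 CPM where the other farnesol libraries held 91.0 to 98.7 CPM. Atp5f1c, the gamma subunit, did not pass (log2 fold change 0.12 ± 0.05 (SE), edgeR adjusted p = 0.0614).

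The peripheral stalk holds the head still, and 3 of its 4 subunits rose. Atp5pd had the smallest p of the complex, with 301, 262, 255, 269 and 337 CPM in the farnesol libraries, against 167, 199, 224, 200.2 and 192 CPM in the control libraries. The groups were well apart (log2 fold change 0.54 ± 0.09 (SE), edgeR adjusted p = 0.000375), and the rise was kept with the library axis (adjusted p = 0.00107) and lost with the length slope (0.536). Atp5po, the subunit that confers sensitivity to oligomycin, had 116, 117, 109, 116 and 139 CPM in the farnesol libraries, against 77.3, 84.0, 100.2, 88.1 and 88.7 CPM in the control libraries without overlap (log2 fold change 0.44 ± 0.08 (SE), edgeR adjusted p = 0.000545). Atp5pf rose with a log2 fold change of 0.44. Atp5pb, the fourth, had 180.1, 175, 184, 171 and 180.2 CPM in the farnesol libraries, against 157, 179, 182, 191 and 178 CPM in the control libraries. Its groups lay on top of each other and its fold change was near 0 (log2 fold change 0.0044 ± 0.06 (SE), edgeR adjusted p = 0.953).

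The ring of c subunits turns with the proton flow, and its protein is encoded by several genes that differ in their import sequences. Atp5mc2 had 82.4, 87.2, 80.7, 81.9 and 118 CPM in the farnesol libraries, against 56.8, 63.3, 71.0, 64.2 and 60.3 CPM in the control libraries without overlap (log2 fold change 0.51 ± 0.10 (SE), edgeR adjusted p = 0.00111). Atp5mc3 had 134, 132, 126, 122 and 151 CPM in the farnesol libraries, against 94.7, 101, 121, 105 and 107 CPM in the control libraries, also without overlap (log2 fold change 0.33 ± 0.07 (SE), edgeR adjusted p = 0.00203). Reads from the near-identical coding parts of these genes can be split by counting, so their values are uncertain to that degree. Among the small membrane subunits, Atp5me, Atp5mf and Atp5mg rose with log2 fold changes of 0.48, 0.38 and 0.34, and Atp5mk did not pass (log2 fold change 0.12 ± 0.09 (SE), edgeR adjusted p = 0.233). Both entries with the symbol Atp5mpl lie in 1 uninterrupted stretch each, and neither passed.

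Atp5if1 is the inhibitor that stops ATP synthase from running backwards. It had 122, 111, 117, 112 and 157 CPM in the farnesol libraries, against 85.2, 112, 127, 111 and 96.5 CPM in the control libraries. The groups overlapped and no change was called (log2 fold change 0.22 ± 0.11 (SE), edgeR adjusted p = 0.107). Its value was -0.35 in the fit that holds the length slope, with an adjusted p of 0.00418. It averaged 258 ± 34.8 FPKM with farnesol and 219 ± 32.9 FPKM in control (SD, n = 5 each).

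The 13 members not tested included the testis isoforms Cox8c and Cox7b2 and genes whose symbols mark them as like other members, such as Uqcrbl1 and Atp5mc2l1. Of the 13, 8 were at 0 in every library, and the others had at most 7 counts. For a gene listed at 0, up to 3 counts cannot be told from none, which is 0.0637 to 0.0717 CPM across the libraries and covers counting error only. Of the 76 tested members, 75 had at least 10 counts in every library, the exception being Cox6a2, and 67 had a mean above 10 FPKM in both groups.

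Genes around the chain were mixed. Of the subunits encoded in mitochondrial DNA, 2 of 13 rose and 5 fell, with a median log2 fold change of 0.0026, where 29.3% of all genes tested were higher and 30.0% lower. With the length trend removed, 1 was higher and 9 were lower, with a median of -0.29, against 27.5% higher and 28.3% lower over all genes tested. ATP8, a subunit of ATP synthase, fell (log2 fold change -0.51 ± 0.10 (SE), edgeR adjusted p = 0.00115), as did ND4L (log2 fold change -0.68 ± 0.16 (SE), edgeR adjusted p = 0.00261) and ND5 (log2 fold change -0.30 ± 0.08 (SE), edgeR adjusted p = 0.00904) of complex I. ND6, also of complex I and overlapping ND5 in position, rose (log2 fold change 0.45 ± 0.09 (SE), edgeR adjusted p = 0.00122). COX1 of complex IV (log2 fold change -0.15 ± 0.05 (SE), edgeR adjusted p = 0.0308) and CYTB of complex III (log2 fold change -0.14 ± 0.06 (SE), edgeR adjusted p = 0.0494) fell narrowly. Their adjusted p reached 0.0822 for COX1 and 0.135 for CYTB when a single library was left out. ATP6, whose position overlaps that of ATP8, rose (log2 fold change 0.18 ± 0.07 (SE), edgeR adjusted p = 0.0419). ND4, whose position overlaps that of ND4L, did not pass (log2 fold change 0.13 ± 0.06 (SE), edgeR adjusted p = 0.0982). How reads were shared between these overlapping genes was not tested. None of the 13 passed with the library axis or with the length slope as a covariate. Over all genes tested, 21.1% were called in either direction with the library axis and 7.53% with the length slope. Of 6 tested nuclear subunits and partners that the naming rule leaves out, 4 rose and none fell. Ndufa4l2, a relative of Ndufa4 known from low oxygen, rose (log2 fold change 0.56 ± 0.14 (SE), edgeR adjusted p = 0.00404) and lost its call with the library axis (adjusted p = 0.541).

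Assembly factors were mixed. Of 15 complex I factors 5 rose (33.3%, near the 29.3% of all genes tested) and 2 fell, with Timmdc1 (log2 fold change 0.52 ± 0.08 (SE), edgeR adjusted p = 0.000218) and Ecsit (log2 fold change 0.67 ± 0.11 (SE), edgeR adjusted p = 0.000412) having the smallest p. Both kept their rise with the library axis and lost it with the length slope (edgeR adjusted p = 0.197 for Timmdc1 and 0.631 for Ecsit). None of the assembly factors of the 5 complexes passed with the length slope, where 7.53% of all genes tested were called. All 3 tested complex II factors, 3 of 6 complex III factors and 2 of 4 complex V factors rose. Of 13 complex IV factors 7 rose and 2 fell. Over all genes tested, 29.3% were higher and 30.0% lower. Cox11, a factor that delivers copper to COX1, had 2.60, 3.02, 3.20, 3.03 and 2.82 CPM in the farnesol libraries, against 7.88, 6.33, 5.33, 4.80 and 6.58 CPM in the control libraries. All farnesol libraries were below all control libraries (log2 fold change -1.08 ± 0.14 (SE), edgeR adjusted p = 7.95e-05), and the fall was kept with the library axis (adjusted p = 0.00375) and lost with the length slope (0.122). Cox19, another copper factor, rose (log2 fold change 0.55 ± 0.08 (SE), edgeR adjusted p = 0.000156) and likewise lost its call with the length slope (0.182).

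Of 16 tested regulators of these genes, 2 rose and 7 fell, with a median log2 fold change of -0.15, where 29.3% of all genes tested were higher and 30.0% lower. With the length trend removed, 5 were higher and 7 lower, against 27.5% higher and 28.3% lower over all genes tested. Gabpa, the DNA-binding subunit of GABP, had 26.6, 32.7, 33.9, 26.9 and 22.4 CPM in the farnesol libraries, against 46.3, 42.0, 36.2, 37.9 and 44.2 CPM in the control libraries (log2 fold change -0.53 ± 0.11 (SE), edgeR adjusted p = 0.00135). Sirt1 (log2 fold change -0.66 ± 0.15 (SE), edgeR adjusted p = 0.00221) and Yy1 (log2 fold change -0.51 ± 0.12 (SE), edgeR adjusted p = 0.00277) fell as well. Polrmt, the mitochondrial RNA polymerase, was 1 of the 2 that rose (log2 fold change 0.62 ± 0.14 (SE), edgeR adjusted p = 0.00194). Nrf1 (log2 fold change 0.05 ± 0.08 (SE), edgeR adjusted p = 0.56), Tfam, the mitochondrial DNA packaging factor (log2 fold change 0.04 ± 0.09 (SE), edgeR adjusted p = 0.74), and Esrra (log2 fold change -0.0036 ± 0.16 (SE), edgeR adjusted p = 0.987) did not pass. None of the 16 passed with either the length slope or the library axis as a covariate. In those fits 7.53% and 21.1% of all genes tested were called in either direction. The coactivators Ppargc1a, with 3 to 16 counts, and Ppargc1b, with 0 to 18 counts, were too low to test.

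Of 13 citric acid cycle enzymes 6 rose and 2 fell, with a median log2 fold change of 0.13. Over all genes tested, 29.3% were higher and 30.0% lower. With the length slope as covariate none of the 13 passed, where 7.53% of all genes tested were called in either direction. Idh3g, a regulatory subunit of isocitrate dehydrogenase, rose (log2 fold change 0.61 ± 0.08 (SE), edgeR adjusted p = 0.00011) and kept its rise with the library axis (adjusted p = 0.000125) but not with the length slope (0.0973). Suclg1, of succinyl-CoA synthetase, the step before complex II, rose (log2 fold change 0.42 ± 0.07 (SE), edgeR adjusted p = 0.000412), and so did Mdh2, the mitochondrial malate dehydrogenase (log2 fold change 0.42 ± 0.08 (SE), edgeR adjusted p = 0.00115). Suclg1 kept its rise with the library axis (adjusted p = 0.00616) and lost it with the length slope (0.47), and Mdh2 lost it with both (0.0767 and 0.92). The 2 that fell were Dld (log2 fold change -0.38 ± 0.09 (SE), edgeR adjusted p = 0.00273) and Sucla2 (log2 fold change -0.26 ± 0.07 (SE), edgeR adjusted p = 0.00578). Sucla2 is another subunit of succinyl-CoA synthetase, so that enzyme's genes did not move together. Suclg2, also of that enzyme, did not pass (log2 fold change -0.11 ± 0.06 (SE), edgeR adjusted p = 0.144).

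The labelled cell type was compared with marker genes. Of 14 tendon and mesenchymal markers 13 were tested, and 2 rose and 7 fell, where 29.3% of all genes tested were higher and 30.0% lower. Their summed level was 36033 to 39895 CPM with farnesol and 37739 to 39557 CPM in control, mostly Col1a1, Col1a2, Thy1, Col3a1 and Bgn. Scx (log2 fold change -0.72 ± 0.12 (SE), edgeR adjusted p = 0.00047) and Mkx (log2 fold change -0.46 ± 0.10 (SE), edgeR adjusted p = 0.00182), which add little to that sum, were among the 7 that fell. Tnmd, a marker of mature tendon cells, had 0 or 1 counts in every library. Tnc, the matrix protein tenascin C, had the smallest p of them and fell (log2 fold change -1.28 ± 0.06 (SE), edgeR adjusted p = 1.04e-08). Of 13 muscle markers 3 could be tested, and all 13 summed to 65.6 to 99.2 CPM with farnesol and 148 to 175 CPM in control, mostly Acta1; Myh7 was at 0. The 5 brown fat markers summed to 56.6 to 66.2 CPM with farnesol and 73.2 to 87.7 CPM in control, mostly Dio2, and Ucp1 had 1 to 20 counts. Of the 3 tested muscle markers 1 rose and 1 fell, and of the 2 tested brown fat markers 1 fell. The 8 blood and immune markers summed to 2.86 to 3.63 CPM with farnesol and 0.840 to 2.05 CPM in control, mostly Cd68, with Ptprc and Adgre1 at 0. Cd68, the 1 tested, rose (log2 fold change 1.00 ± 0.23 (SE), edgeR adjusted p = 0.00225). The 5 endothelial markers reached at most 0.821 CPM with farnesol and 0.890 CPM in control, with Cdh5 at 0. Tek, the 1 tested, fell (log2 fold change -1.37 ± 0.46 (SE), edgeR adjusted p = 0.0215). The 7 epithelial and neural markers summed to 3.73 to 5.58 CPM with farnesol and 2.12 to 4.18 CPM in control, with Krt18 and Sox10 at 0. The 2 tested, Krt8 (log2 fold change 0.80 ± 0.23 (SE), edgeR adjusted p = 0.00921) and Tubb3 (log2 fold change 0.61 ± 0.20 (SE), edgeR adjusted p = 0.0206), rose. They lost their calls with the library axis (0.532 and 0.663). The part of any of these marker genes in the members' change was not tested.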

How the data were processed

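RNA was measured in 10 libraries, 5 with farnesol and 5 controls, grouped by the sample labels. The submitters' processing notes list the tools StringTie, DESeq, HTSeq 0.9.1 and HISAT2 2.0.5 and the build rn7, without their roles. Per the file headers, the table that the authors deposited holds a read count and an FPKM for every gene in every library. Gene length was taken from the ratio of count to FPKM. The sources used here do not say whether reads were counted by strand, so overlapping genes and antisense genes may share reads. After removal of 1 repeated row, 23051 genes were kept. Depth was 41.8 to 47.1 M counts per library.

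Counts of 12942 genes with at least 10 counts in at least 5 libraries went into a test in edgeR 4.0.16 (R 4.3.3; TMM normalization, robust quasi-likelihood fit, no term besides group), and p-values were adjusted by Benjamini-Hochberg over all of them at 0.05. CPM values use TMM-scaled library sizes. SEs were obtained from the F statistic, as the absolute log2 fold change over its root. Medians and counts over members are descriptions, with no test. The values of 1 untested member are not reported here. The members and gene lists were chosen with earlier results of these data known. Named in full are, per complex, the 4 tested members with the smallest p, members called in the rarer direction, tissue isoforms and Cyc1. Of other lists, up to 4 genes with the smallest p are named, together with the main regulators. Further members are named with values because any member may be. Further genes of the other lists are also named, such as genes called in the other direction. Alternatives were other filters and scalings, DESeq2 1.42.0, limma 3.58.1 on log2 (FPKM + 0.1), a fit without each library in turn, a block on replicate number, the library axis, the length slope and a smooth length trend with 5 degrees of freedom. Only the main fit was tested on simulated counts, which held no library axis and no length slope. The other fits were not simulated. The chi-square of counts per gene between replicate libraries was 3.95 to 113 over 20 pairs, above sampling noise, so none was taken for a repeat deposit.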

Additional observations from a re-analysis of the deposited data

Results flagged for a closer look

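Single libraries stood apart from the rest of their group, by the gap to the nearest library over the group's range (above Dixon's 0.71 for 5 samples), in 17 of 118 groups of values examined for named members and summed complexes. Chance flags about 1 in 20 groups, and the groups share libraries. Of the 17, 14 were farnesol 5 as the highest of its group.

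Farnesol 5 held 91.9 CPM of Ndufa11 (other farnesol libraries 54.0 to 63.6), 33.0 CPM of Ndufs7 (20.9 to 22.1), 67.8 CPM of Ndufb7 (37.4 to 44.9) and 97.5 CPM of Ndufa13 (56.0 to 65.4). In complex III it held 182 CPM of Uqcrh (153 to 161) and 127 CPM of Uqcr10 (75.3 to 88.9). It held 83.0 CPM of Cox7a2 (68.4 to 72.3), 139 CPM of Atp5po (109 to 117) and 118 CPM of Atp5mc2 (80.7 to 87.2). It also held 151 CPM of Atp5f1d (91.0 to 98.7), 41.8 CPM of Atp5me (24.8 to 26.6) and 157 CPM of Atp5if1 (111 to 122). The summed CPM of complex I was 2536 in farnesol 5 (other farnesol libraries 1918 to 2086), and that of complex III was 908 (734 to 772).

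Control 3 held the highest control value of Ndufv1 at 80.5 CPM (other controls 64.5 to 68.8) and of Ndufs7 at 19.8 CPM (15.8 to 16.5). Control 1 held the lowest control value of Cox7b at 30.5 CPM (37.6 to 40.4). Farnesol 5 had a length slope of -0.185, control 3 one of -0.00186 and control 1 one of 0.169; the part of the slope in these values was not tested.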

How the results depend on the processing

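Of the 59 members that rose, 54 to 59 were also higher under the other filters and scalings, DESeq2, limma on FPKM, the replicate block and each library left out, and 54 to 66 members were called higher when a single library was left out. The number of members that fell was 1 with no count filter, library totals without TMM, limma on FPKM and the replicate block, and 1 to 2 with a library left out. In complex II, 1 member rose with no count filter and with the replicate block, and 1 to 2 with a library left out. Same-numbered libraries did not deviate together (correlations of -0.39 to 0.049). This does not settle whether the number pairs samples, because differences between whole libraries could hide a shared origin and the labels do not give it. With the replicate block 54 of the 59 rises were kept and 1 member was newly higher, the median log2 fold change being 0.35.

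The covariates changed most. With the library axis 10 members rose and 1 fell, the medians being 0.042 over all members, 0.060 in complex I (5 rises), 0.038 in complex II (0 rises), 0.016 in complex III (1), 0.034 in complex IV (1) and 0.079 in complex V (3). With the length slope 1 member rose, in complex IV, and 0 rose in complexes I, II, III and V; the medians were -0.055 over all, -0.050, 0.028, -0.057, -0.093 and -0.042 in complexes I to V. With the length trend removed 33 rose and 7 fell, with medians of 0.11 over all, 0.18 in complex I (17 rises), -0.011 in complex II (1), 0.045 in complex III (2), 0.098 in complex IV (4) and 0.13 in complex V (9). Log2 fold changes of named members, called or not, turned sign with the library axis for Ndufb7 (-0.030), Ndufa13 (-0.24), Ndufb6 (-0.057), Ndufc2 (-0.023), Sdhd (-0.030), Sdha (0.017), Uqcr10 (-0.015), Uqcrq (-0.15), Cox6a1 (-0.0043), Cox7c (-0.0002), Atp5f1d (-0.040), Atp5me (-0.032), Atp5if1 (-0.18), Atp5mk (-0.13) and Atp5pb (-0.060); with the length slope for Ndufa11 (-0.046), Ndufv1 (-0.060), Ndufs7 (-0.097), Ndufv2 (-0.066), Ndufb7 (-0.19), Ndufs1 (0.040), Ndufa13 (-0.43), Ndufb6 (-0.13), Ndufc2 (-0.053), Sdhd (-0.075), Sdha (0.019), Uqcrc1 (-0.056), Uqcrc2 (0.041), Uqcrh (-0.041), Uqcr10 (-0.18), Uqcrb (-0.10), Uqcrq (-0.31), Uqcrfs1 (-0.058), Cox4i1 (-0.095), Cox6b1 (-0.092), Cox7a2 (-0.0064), Cox6a1 (-0.15), Cox5b (-0.15), Cox6c (-0.015), Cox7c (-0.10), Cox7a2l (-0.068), Atp5mc3 (-0.0061), Atp5pf (-0.081), Atp5f1d (-0.23), Atp5me (-0.21), Atp5f1c (-0.042), Atp5if1 (-0.35), Atp5mk (-0.27) and Atp5pb (-0.12); and with the length trend removed for Ndufv2 (-0.0013), Ndufb6 (-0.18), Ndufc2 (-0.26), Sdhc (-0.11), Sdhd (-0.19), Sdha (0.087), Uqcrfs1 (-0.13), Cox6c (-0.0019), Cox7c (-0.010), Cox7a2l (-0.066), Atp5if1 (-0.059), Atp5mk (-0.11) and Atp5pb (-0.19). Among fits without a length or axis term, Sdha was 0.0055 with library totals without TMM, 0.0041 with limma on FPKM and -0.034 to 0.0016 with a library left out, and Atp5pb was -0.038 to 0.032 with a library left out. The cause was not tested. The slope and the axis differ between the groups, so a loss of calls with them is no measure of the treatment alone. Cox6a2 was measured with few counts, which limits what can be said of it, and a p that misses the threshold does not show that values did not differ.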
